A study of Mus musculus with 14 samples.

Results

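The genes described here are 9 markers of epithelial cells, namely Epcam, Cdh1, Cldn10, Krt7, Krt8, Krt18, Krt19, Krt5 and Krt14, followed through cells that were sorted for the EpCAM protein. They were chosen by gene name from a table of 54532 genes, and all 9 passed the filter on low counts, which left 15915 genes to test. RNA was sequenced in 14 libraries of cells from the submandibular gland, a salivary gland, of adult mice. In all groups the mice carried TertCreERT2/+, a tamoxifen-inducible Cre recombinase at the locus of the telomerase gene Tert, and Rosa26LSL-tdTomato/+, a fluorescent reporter that Cre switches on. Living cells, negative for the dye DAPI, were gated as positive for EpCAM and then split into tdTomato-positive (Tert+) and tdTomato-negative (Tert-) populations. The groups were Tert+ after 15 Gy of radiation (RT, n = 4), Tert- after 15 Gy (n = 4), Tert+ without RT (n = 3) and Tert- without RT (n = 3). Tamoxifen, the time between RT and sorting and the number of animals per library are not described in the labels. Whether replicates are different animals is likewise unstated, and each p-value therefore reflects variation among these libraries, which may be technical.

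EpCAM is a surface glycoprotein of simple epithelia, and E-cadherin, made from Cdh1, holds neighbouring epithelial cells together at adherens junctions. Keratins build the intermediate filaments of epithelial cells as pairs of a type I and a type II chain: Krt8 (type II) pairs with Krt18 (type I) in luminal cells, where Krt7 (type II) and Krt19 (type I) mark ducts, whereas Krt5 (type II) pairs with Krt14 (type I) in basal duct and myoepithelial cells. Claudin-10, from Cldn10, is a tight junction protein that forms ion channels between cells and is found in secretory acini of salivary glands.

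The ratio of Krt7 to Krt8 counts, chosen after its values were seen and not tested, had ranges that did not overlap between the populations. Promoter sequences are shown for Epcam, Krt8 and Krt18, whose levels varied together, and for Krt7 because of this ratio. Each is the 300-base window around the annotated start from RefSeq, build GRCm38.p6, which is the mm10 assembly that the counts use; 7 of the 9 genes had an entry in that table. Capitals mark matches on either strand to TATAAA, the core of the TATA box, to GGGCGG, the GC box, or to AACCNGTT, the grainyhead motif.
Epcam: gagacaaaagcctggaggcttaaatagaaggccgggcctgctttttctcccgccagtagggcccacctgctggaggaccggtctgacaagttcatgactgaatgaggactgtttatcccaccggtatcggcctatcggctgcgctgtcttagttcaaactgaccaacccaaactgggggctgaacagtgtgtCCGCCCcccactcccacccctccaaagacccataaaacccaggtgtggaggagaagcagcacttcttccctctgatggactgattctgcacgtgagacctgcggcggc
Krt8: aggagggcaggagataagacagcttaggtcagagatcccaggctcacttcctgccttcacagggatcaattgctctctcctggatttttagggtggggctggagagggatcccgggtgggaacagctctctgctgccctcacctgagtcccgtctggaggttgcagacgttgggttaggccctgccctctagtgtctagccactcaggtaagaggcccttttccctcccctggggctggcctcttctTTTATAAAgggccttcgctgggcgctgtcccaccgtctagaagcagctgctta
Krt18: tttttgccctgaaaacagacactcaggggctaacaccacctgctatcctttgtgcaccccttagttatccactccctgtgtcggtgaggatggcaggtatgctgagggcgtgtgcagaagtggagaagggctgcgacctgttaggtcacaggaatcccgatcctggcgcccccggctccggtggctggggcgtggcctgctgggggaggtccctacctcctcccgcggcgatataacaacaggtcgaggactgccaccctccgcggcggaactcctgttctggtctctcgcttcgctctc
Krt7: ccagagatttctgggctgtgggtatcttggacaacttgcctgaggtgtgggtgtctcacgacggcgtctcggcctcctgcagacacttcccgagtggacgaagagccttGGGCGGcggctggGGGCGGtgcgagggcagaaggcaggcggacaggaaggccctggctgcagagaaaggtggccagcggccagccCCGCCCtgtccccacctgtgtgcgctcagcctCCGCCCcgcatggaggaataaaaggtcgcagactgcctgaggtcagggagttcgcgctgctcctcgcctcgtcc
The windows lie at chr17:87635729-87636028, plus strand (Epcam), chr15:102004293-102004592, minus strand (Krt8), chr15:102027966-102028265, plus strand (Krt18) and chr15:101412153-101412452, plus strand (Krt7). Krt7 held 4 GC box matches and Epcam held 1, and a match was present in 35.7% of 32851 promoters. In Krt8 a pair of overlapping TATAAA matches, one on each strand, began 3 and 1 bases before the annotated start, and 13.6% of promoters held that motif. Krt18 held no match to the 3 motifs, and none of the 4 windows matched the grainyhead motif, which 2.09% of promoters held. Krt8 and Krt18 are neighbours on chromosome 15 and lie on opposite strands. From the highest coordinate of Krt8, where this minus-strand gene begins, to the start of Krt18 there are 23698 bases.

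Total counts were 5986984 to 11642156 in Tert+ RT libraries, 5520412 to 10953634 in Tert- RT libraries, 9220126 to 15943597 in Tert+ libraries without RT and 9687159 to 13454637 in Tert- libraries without RT. Levels are given as CPM, each count relative to the TMM-scaled total of its library, and reads carry no molecular identifiers, so counting intervals cover counting error only. A label field for the cell type names the opposite population to the title in 14 of 14 libraries, while the description field matches the title in 14 of 14; groups follow the titles. Tert itself had 0, 52, 34 and 15 counts in Tert+ RT libraries against 0, 0, 9 and 15 in Tert- RT libraries, and 0, 7 and 8 in Tert+ libraries without RT against 22, 28 and 13 in Tert- libraries without RT, so that without RT its order went against the titles. Markers of B cells were high in every library despite the EpCAM gate, with a summed level of 6558 to 10814 CPM for 6 genes led by Cd79a, and Ptprc, the leukocyte surface protein CD45, had a median of 1370 CPM against 43.6 CPM for Epcam. The 9-gene acinar list summed to 2698 to 28777 CPM. In bulk libraries like these, fewer epithelial cells and less RNA per epithelial cell cannot be told apart.

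Luminal keratins far outweighed basal ones in these cells. On the scale of CPM per kilobase of gene length, which allows genes to be compared, the median level over 14 libraries was 65.5 for Krt18, 25.3 for Krt8, 21.4 for Epcam, 6.88 for Cdh1, 5.84 for Krt7, 3.80 for Cldn10, 1.84 for Krt14, 0.52 for Krt5 and 0.27 for Krt19. Krt18 was above Krt8 in 14 of 14 libraries and Epcam was above Cdh1 in 14 of 14. Krt8 and Epcam could not be ordered, since Krt8 was the higher in 4 of 14, nor could Cdh1 and Krt7, with Cdh1 higher in 6 of 14. Cldn10 and Krt14 were in that order in 11 of 14 libraries, Krt14 and Krt5 in 10, Krt7 and Cldn10 in 9, and Krt5 and Krt19 in 7. Among the 15915 tested genes, Krt18 ranked 813th by this median, Krt8 2175th and Epcam 2546th, whereas Krt5 and Krt19 ranked 12842nd and 13880th. The deposited length of Krt7, 7049 bases, exceeds its longest coding transcript of 4094 bases in GENCODE vM21, and with the shorter length the median of Krt7 was 10.1 per kilobase, above Cdh1 at 7.10.

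The basal keratins Krt5 and Krt14 together made up 0% to 13.0% of the keratin level per kilobase (Krt7, Krt8, Krt18, Krt19, Krt5 and Krt14 summed), with a median of 4.09% over 14 libraries. The median basal share was 6.66% in Tert+ RT libraries, 4.38% in Tert- RT libraries, 3.62% in Tert+ libraries without RT and 1.99% in Tert- libraries without RT. Ranges overlapped between all groups, and Tert+ RT alone ran from 0% to 13.0%. Both basal keratins had 0 counts in Tert+ RT replicate 1 and in Tert- no RT replicate 3, 2 libraries that held 2019 and 3292 counts of luminal keratins.

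**Figure D1:**
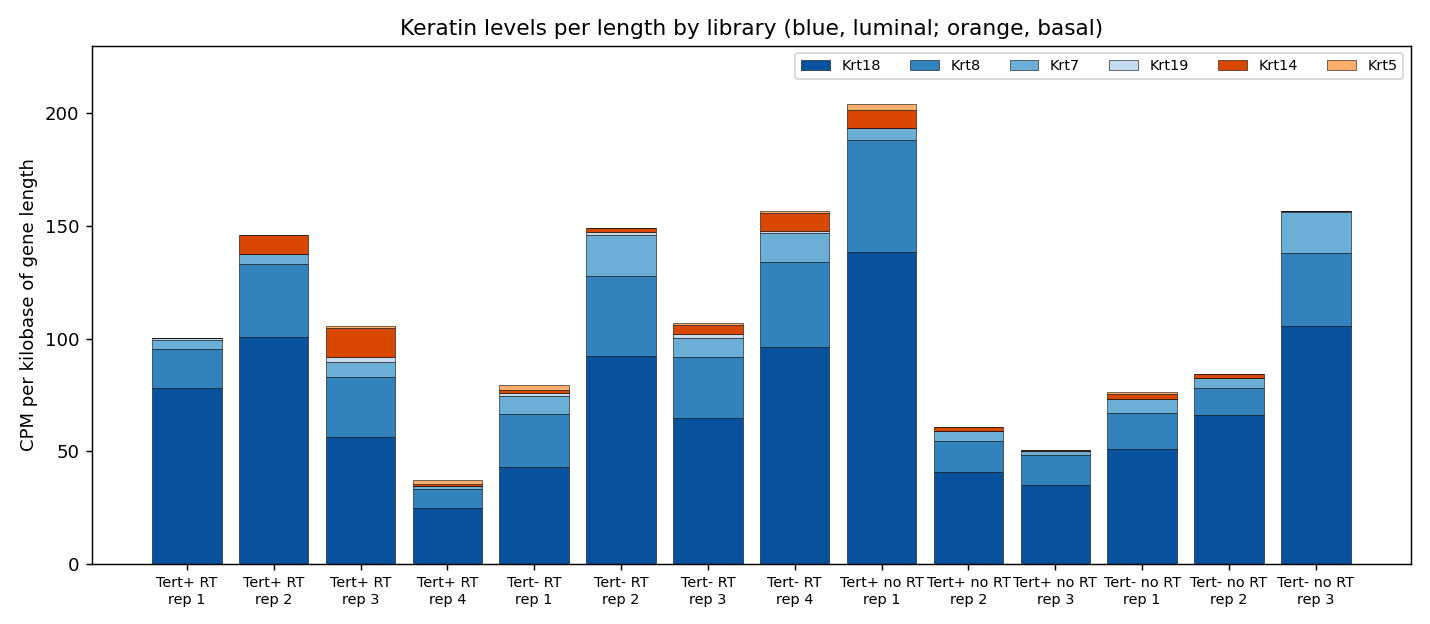
Keratin levels in each of the 14 libraries as CPM per kilobase of gene length, stacked by gene, with luminal keratins in blue and basal keratins in orange. The luminal sum ran from 34.4 in Tert+ RT replicate 4 to 194 in Tert+ no RT replicate 1, and the basal sum did not exceed 13.7.

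Across the 7 comparisons, edgeR's quasi-likelihood test, with p-values adjusted by Benjamini and Hochberg over all genes tested, put 0 of the 9 genes past an adjusted p of 0.05. The comparisons were Tert+ against Tert- after RT and without RT, RT against no RT in Tert+ and in Tert-, the difference between the RT responses, and the 2 means over populations and over RT states. In the same order, the share of all 15915 genes past the threshold was 0.0126%, 0.0377%, 1.98%, 1.62%, 0%, 13.4% for the mean RT contrast and 0.220% for the mean population contrast. At an unadjusted p under 0.05, edgeR counted 1, 1, 2, 0, 0, 2 and 1 of the 9 genes in that order, where 7.39%, 4.50%, 18.0%, 18.8%, 3.63%, 28.9% and 8.24% of all genes stood. DESeq2 called 1 of the 9 in each of the mean contrasts, Krt19 for RT and Krt7 for the population, and 0 in the other 5. Over the whole table it called 162 genes in the mean population contrast. In the mean RT contrast 1 of 9 is near the 13.4% of all genes that edgeR called. Settings other than leaving out 1 library called 1627 to 3023 genes there. By limma voom 0 were called in all 7. The CPM ranges of the groups did not overlap for 1 of the 9 genes between the populations after RT (Krt7), 0 between them without RT, 0 for RT in Tert+ and 1 for RT in Tert- (Krt19), where 4.88%, 8.87%, 15.5% and 18.9% of all genes had such ranges. The median log2 fold change of the 9 genes was -0.55 after RT and 0.20 without RT between the populations, and -0.14 in Tert+ and 0.30 in Tert- for RT, against -0.0041, 0.0075, -0.0013 and -0.016 over all genes.

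**Figure D2:**
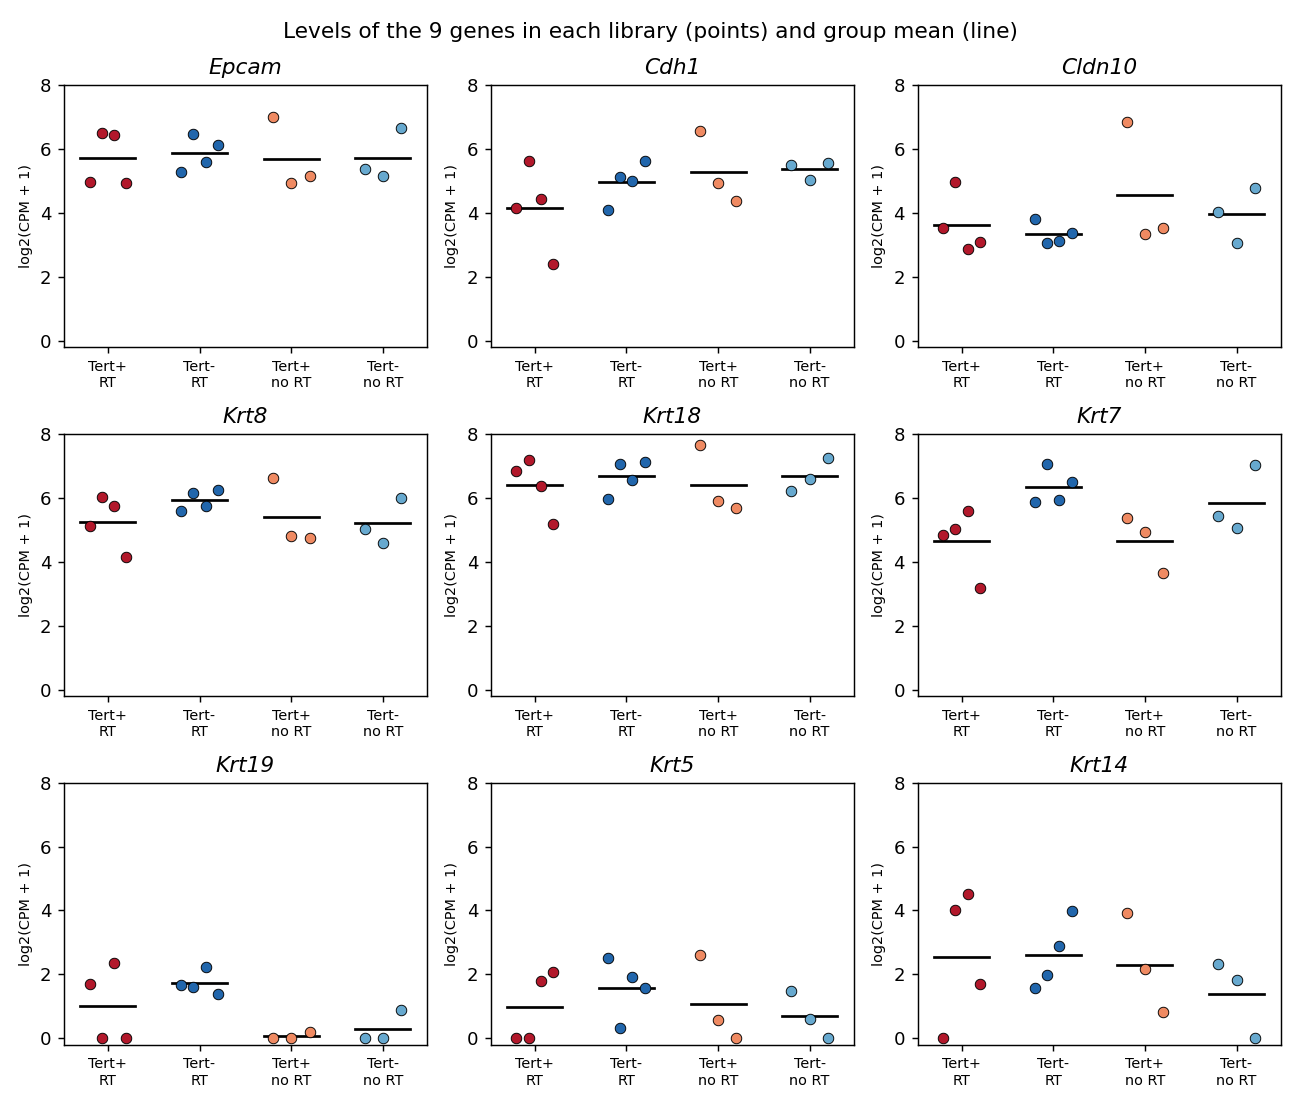
Level of each of the 9 genes as log2(CPM + 1), with 1 point per library and a line at the group mean of these log values, for Tert+ RT, Tert- RT, Tert+ no RT and Tert- no RT. Krt7 has 4 Tert+ RT points below the 4 Tert- RT points, and Krt19 is at or near 0 in the 6 libraries without RT.

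Krt7, a type II keratin of simple ducts (ENSMUSG00000023039, chromosome 15, 101411043 to 101430313), had lower mean levels in Tert+ than in Tert- libraries, without passing the threshold over all genes. It was at 27.7, 31.4, 46.8 and 8.04 CPM in Tert+ RT libraries and at 56.8, 131, 60.2 and 88.3 CPM in Tert- RT libraries. Without RT it was at 39.9, 29.2 and 11.5 CPM in Tert+ libraries and at 42.3, 32.4 and 129.9 CPM in Tert- libraries. After RT the 4 Tert+ values lay below the 4 Tert- values, which held for 2.46% of all genes in that direction, while without RT the groups overlapped. The mean was 28.5 ± 15.9 CPM in Tert+ RT and 83.9 ± 34.1 CPM in Tert- RT libraries (SD, n = 4 each), with a log2 fold change of -1.57 (SE 0.53, edgeR adjusted p = 0.50). Without RT the Tert+ mean was 26.9 ± 14.4 CPM against a Tert- mean of 68.2 ± 53.6 CPM (SD, n = 3 each), with a log2 fold change of -1.35 (SE 0.61, edgeR adjusted p = 1). That value was -0.48 without Tert- no RT replicate 3, the library at 129.9 CPM (edgeR adjusted p = 1).

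Averaged over both RT states, Krt7 had a log2 fold change of -1.46 in Tert+ against Tert- (SE 0.40, 95% interval -2.25 to -0.67, edgeR adjusted p = 0.268). DESeq2 gave it -1.46 with an adjusted p of 0.0226. The same library moved this mean value to -1.02 when left out (edgeR adjusted p = 0.450). The difference between the RT responses of the populations was -0.22 for Krt7 (95% interval -1.77 to 1.33). Macrophage sums were lower in Tert+ than in Tert- libraries without overlap in either RT state. Granular duct sums overlapped in both RT states. Their median was lower in Tert+ without RT, at 2523 against 8372 CPM in Tert-. After RT it was higher in Tert+, at 2766 against 2028 CPM in Tert-. The 6 macrophage genes summed to 94.2 to 191 CPM in Tert+ RT, 250.4 to 1158 in Tert- RT, 117 to 280.2 in Tert+ without RT and 1520.4 to 1860 in Tert- without RT, with Adgre1 at 0 in 1 library. The 6 granular duct genes, led by Klk1, summed to 748 to 5658 CPM in Tert+ RT, 1713 to 10205 in Tert- RT, 1697 to 5305 in Tert+ without RT and 4254 to 14307 in Tert- without RT, with none at 0 in any library. Their part in the Krt7 difference was not tested.

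Set against Krt8, its fellow type II keratin, Krt7 parted the populations completely. The ratio of Krt7 to Krt8 counts was 0.82, 0.49, 0.90 and 0.48 in Tert+ RT libraries against 1.21, 1.88, 1.14 and 1.18 in Tert- RT libraries. Without RT it was 0.41, 1.08 and 0.45 in Tert+ libraries and 1.36, 1.41 and 2.05 in Tert- libraries. The 7 Tert+ values, 0.41 to 1.08, thus lay below the 7 Tert- values, 1.14 to 2.05, with means of 0.66 ± 0.27 and 1.46 ± 0.36 (SD, n = 7 each). This ratio was chosen after its values were seen and is given without a test; among 9320 genes set against Krt8 in the same way, 0.0322% had ranges that did not overlap, 3 genes including Krt7. With Krt18 or Epcam in place of Krt8 the ranges of the Krt7 ratio overlapped, at 0.20 to 0.58 in Tert+ against 0.34 to 0.99 in Tert- for Krt18, and at 0.27 to 0.98 against 0.93 to 1.51 for Epcam. Of the 50-base stretches of Krt8, 29.7% also occur in other genes, mainly the pseudogene Krt8-ps, which had 28 counts over the 14 libraries against 6265 for Krt8; how shared reads were counted is not given in the sources used here.

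**Figure D3:**
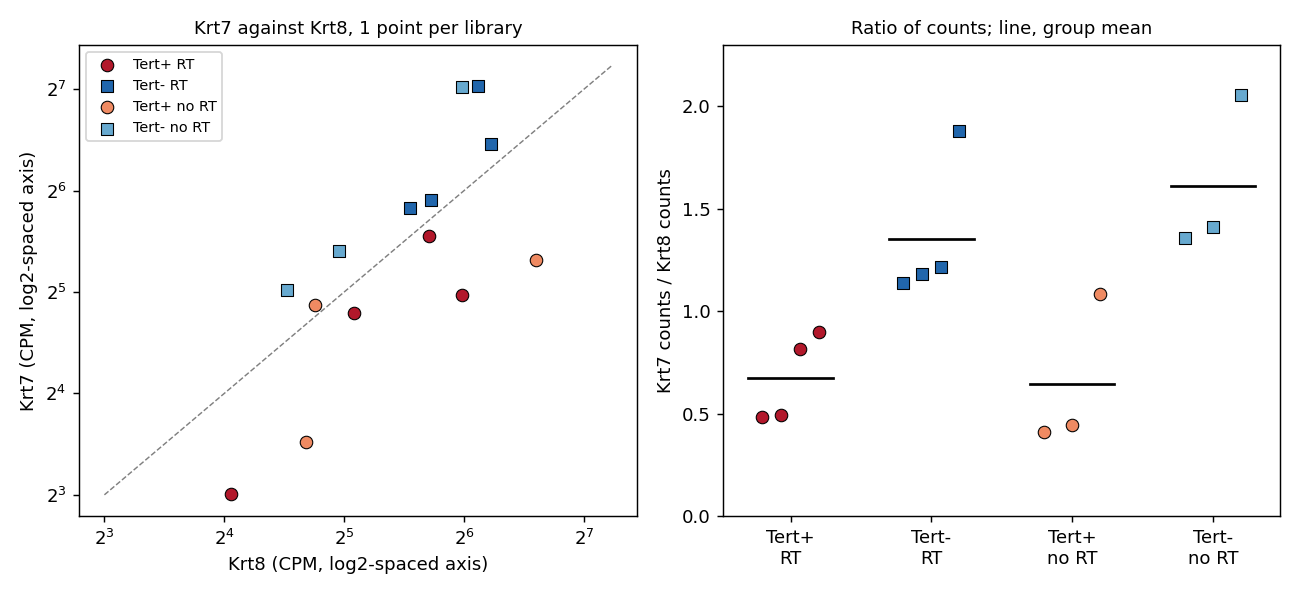
Left, Krt7 against Krt8 in CPM on log2-spaced axes with 1 point per library (circles, Tert+; squares, Tert-; dashed line, equal levels). Right, the ratio of Krt7 to Krt8 counts by group with the group mean as a line; the 7 Tert+ libraries lie at 0.41 to 1.08 and the 7 Tert- libraries at 1.14 to 2.05.

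Krt8 (ENSMUSG00000049382, chromosome 15, 101996698 to 102004482) and Krt18 (ENSMUSG00000023043, chromosome 15, 102028180 to 102032027), the filament pair of luminal cells, showed no difference between groups beyond the spread of the libraries. Krt8 was at 33.9, 63.4, 52.1 and 16.7 CPM in Tert+ RT, 46.8, 69.4, 52.9 and 74.6 CPM in Tert- RT, 97.1, 27.0 and 25.7 CPM in Tert+ without RT and 31.1, 23.0 and 63.2 CPM in Tert- without RT. Its log2 fold change for Tert+ against Tert- was -0.56 after RT (95% interval -1.46 to 0.34) and 0.35 without RT (-0.69 to 1.39). For Krt18 the values were 112, 145, 81.2 and 35.5 CPM in Tert+ RT, 61.5, 132, 92.8 and 138 CPM in Tert- RT, 199, 58.7 and 50.5 CPM in Tert+ without RT and 73.5, 95.3 and 152 CPM in Tert- without RT. Highest and lowest libraries of both genes were shared, with Tert+ no RT replicate 1 at the top and Tert+ RT replicate 4 at the bottom. Krt18 had a log2 fold change for RT against no RT of -0.14 in Tert+ (95% interval -1.09 to 0.82) and -0.0050 in Tert- (-0.96 to 0.95), and changes inside these intervals could not be detected with these libraries. Without Tert+ no RT replicate 1 the Krt18 value in Tert+ was 0.77 and the Krt8 value for Tert+ against Tert- without RT was -0.56. Over all alternative fits the sign changed in 4 for this Krt18 value and in 2 for this Krt8 value. Neither sign is therefore determined by these libraries.

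Epcam, the gene of the sorted surface protein (ENSMUSG00000045394, mm10 chromosome 17, 87635979 to 87651106), varied about as much within groups as over the whole set. It was at 29.9, 89.1, 85.4 and 29.8 CPM in Tert+ RT libraries and at 37.5, 87.2, 46.7 and 69.0 CPM in Tert- RT libraries. Without RT it was at 126, 29.7 and 34.5 CPM in Tert+ libraries and at 40.4, 34.8 and 99.8 CPM in Tert- libraries. Each group held both low and high libraries, and all groups overlapped. The means were 58.5 ± 33.2 CPM in Tert+ RT, 60.1 ± 22.4 CPM in Tert- RT (SD, n = 4 each), 63.4 ± 54.3 CPM in Tert+ without RT and 58.3 ± 36.04 CPM in Tert- without RT (SD, n = 3 each). The 4 log2 fold changes between these groups ran from -0.12 to 0.12 (edgeR adjusted p from 0.949 to 1).

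Cdh1, the gene of E-cadherin (ENSMUSG00000000303, chromosome 8, 106603351 to 106670246), had its lowest level in Tert+ RT replicate 4. It was at 16.9, 47.7, 20.7 and 4.28 CPM in Tert+ RT, 16.0, 33.5, 31.2 and 48.7 CPM in Tert- RT, 92.7, 29.5 and 19.6 CPM in Tert+ without RT and 44.5, 31.7 and 46.6 CPM in Tert- without RT. All groups overlapped. The largest of its group differences, RT against no RT in Tert+, was -1.08 on the log2 scale (SE 0.61, edgeR adjusted p = 0.374), and it was -0.15 without Tert+ no RT replicate 1. Leaving out Tert+ RT replicate 2 instead gave -1.76.

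Cldn10, the claudin of acini (ENSMUSG00000022132, chromosome 14, 118787908 to 118875489), stood at 10.5, 30.1, 6.28 and 7.44 CPM in Tert+ RT and at 13.1, 7.26, 7.67 and 9.23 CPM in Tert- RT libraries. Without RT it was at 113, 9.17 and 10.6 CPM in Tert+ and at 15.5, 7.34 and 26.5 CPM in Tert- libraries. Of the 14 libraries, Tert+ no RT replicate 1 stood far above the rest. Its log2 fold change for RT against no RT was -1.71 in Tert+ (SE 0.76, edgeR adjusted p = 0.250) and -0.82 in Tert- (SE 0.77, adjusted p = 0.624). Without Tert+ no RT replicate 1, the library at 113 CPM, the value in Tert+ was 0.45 (edgeR adjusted p = 0.757), and without Tert- no RT replicate 3 the value in Tert- was -0.30 (edgeR adjusted p = 0.931). Tert+ no RT replicate 1 also had the highest acinar sum of the 14, 28777 CPM, and the highest Epcam, Cdh1, Krt8 and Krt18. The part of acinar cells in the Cldn10 values was not tested.

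**Figure D4:**
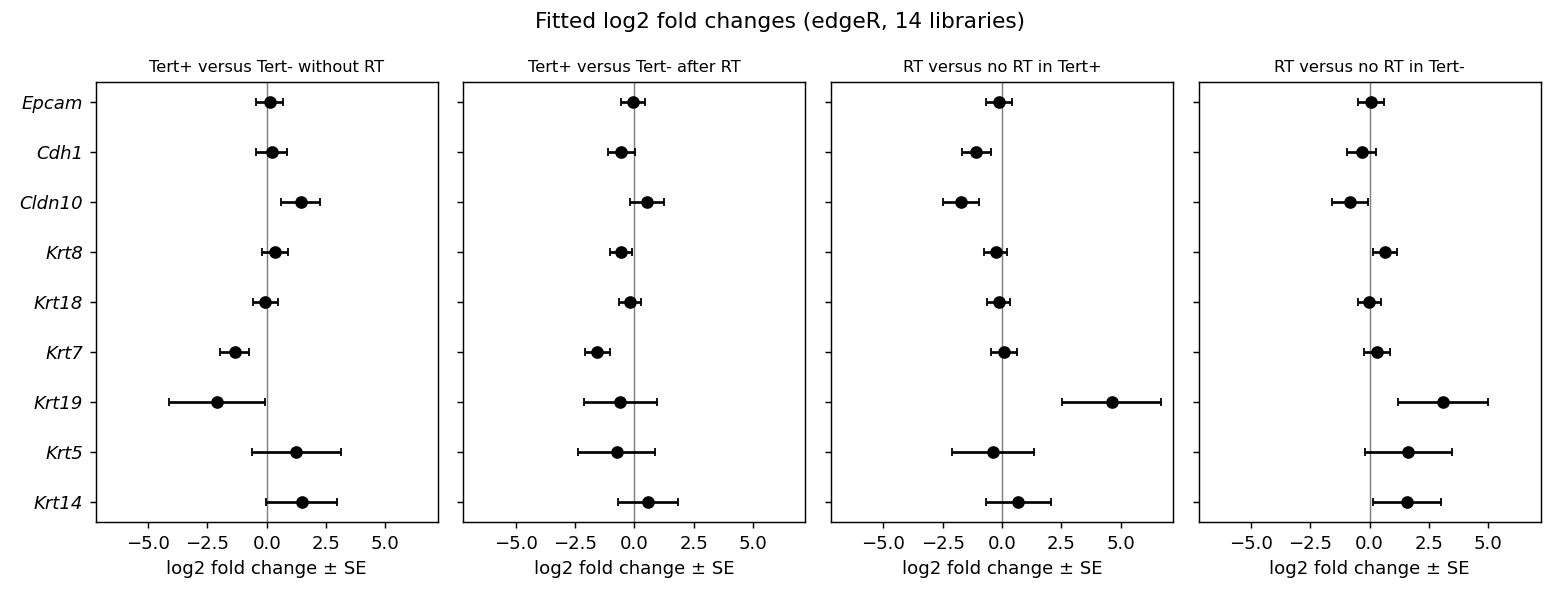
Fitted log2 fold changes of the 9 genes with their standard errors in 4 comparisons from edgeR over 14 libraries, positive where the group named first is higher. Krt7 is at -1.57 after RT and -1.35 without RT for Tert+ against Tert-, and Krt19 at 4.61 in Tert+ and 3.09 in Tert- for RT against no RT with wide errors.

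Krt19, a type I keratin of ducts (ENSMUSG00000020911, chromosome 11, 100140810 to 100148665), was scarce and was counted mainly in RT libraries. It had 26, 0, 30 and 0 counts in Tert+ RT libraries and 12, 16, 28 and 19 counts in Tert- RT libraries, against 0, 0 and 2 counts in Tert+ and 0, 0 and 8 counts in Tert- libraries without RT. The 8 RT libraries thus held 131 counts and the 6 libraries without RT held 10, although the RT libraries included the shallowest ones. A count of 0 allows up to 3 counts, or 0.19 to 0.54 CPM depending on the library. In Tert- the CPM range with RT lay above that without RT, as for 9.70% of all genes, whereas in Tert+ the ranges overlapped. The scaled ratio of group counts for RT against no RT was 28.4 in Tert+ (95% exact Clopper-Pearson counting interval 7.50 to 240.1) and 10.004 in Tert- (4.82 to 24.0). These intervals pool the reads of each group and leave out the spread between libraries. With that spread, the log2 fold change was 4.61 in Tert+ (SE 2.10, edgeR adjusted p = 0.261). In Tert- it was 3.09 (SE 1.90, edgeR adjusted p = 0.410), and neither passed the threshold. Averaged over the populations, the log2 fold change was 3.85 (SE 1.41, edgeR adjusted p = 0.0838), which is not past the threshold. DESeq2 gave 4.03 with an adjusted p of 0.0318, and limma voom gave an adjusted p of 0.0649. Without Tert- no RT replicate 3, which leaves 2 counts in the libraries without RT, edgeR gave an adjusted p of 0.0482. Leaving out any other single library gave an edgeR adjusted p from 0.0518 (Tert+ RT replicate 4) to 0.174 (Tert+ no RT replicate 2). With the replicate number as a block it was 0.0404.

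The basal keratins Krt14 (ENSMUSG00000045545, chromosome 11, 100203162 to 100207548) and Krt5 (ENSMUSG00000061527, chromosome 15, 101707070 to 101712898) were detected at low levels. Krt14 was at 0, 15.2, 22.1 and 2.22 CPM in Tert+ RT and at 1.99, 2.98, 6.48 and 14.7 CPM in Tert- RT libraries, against 14.2, 3.48 and 0.76 CPM in Tert+ and 3.98, 2.53 and 0 CPM in Tert- libraries without RT. Krt5 was at 0, 0, 2.46 and 3.25 CPM in Tert+ RT and at 4.72, 0.26, 2.78 and 1.98 CPM in Tert- RT libraries, against 5.13, 0.51 and 0 CPM in Tert+ and 1.77, 0.52 and 0 CPM in Tert- libraries without RT. All groups overlapped for both genes. The log2 fold change for RT averaged over the populations was 1.14 for Krt14 (SE 0.99, edgeR adjusted p = 0.490) and 0.63 for Krt5 (SE 1.24, adjusted p = 0.790). Without Tert+ no RT replicate 1 these were 1.90 and 2.04, and leaving out another library gave as little as 0.75 for Krt14 (without Tert+ RT replicate 3) and 0.24 for Krt5 (without Tert+ RT replicate 4).
The partner chains did not always appear together, since Tert+ RT replicate 2 had 15.2 CPM of Krt14 and 0 counts of Krt5. Other genes of basal and myoepithelial cells were near 0 as well. Of the 8 myoepithelial markers, which include Krt5 and Krt14, the oxytocin receptor Oxtr was at 0 in 14 libraries and the actin-binding Tagln in 10, while smooth muscle actin, Acta2, had a median of 6.45 CPM. Of the 4 basal duct markers, Trp63, the transcription factor p63 of basal cells, was at 0 in 7 libraries and Krt15 in 10. The summed level was 0.31 to 47.2 CPM for the myoepithelial list and 0 to 29.3 CPM for the basal duct list. Of the 50-base stretches of Krt5, 12.2% occur in other genes, namely Krt6a, Gm5478 and Gm44323, which had 0 counts. Of those of Krt14, 14.4% occur in Krt16 or Krt17. Krt16 had 0 counts, but Krt17 had 328 counts over the 14 libraries, against 799 for Krt14, and holds 3.34% of the Krt14 stretches. Krt14 and Krt17 reads may therefore have been split between them, and the Krt14 values are uncertain to that extent.

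Epcam, Cdh1, Krt7, Krt8 and Krt18 tended to be high and low in the same libraries. No pair that included Krt19, Cldn10 or a basal keratin passed the threshold on these levels. On deviations from the group means, pairs of Cldn10 passed by Pearson r, and fewer of them by rank. Over 14 libraries and 36 pairs of genes, 8 pairs had a permutation p, adjusted over the pairs, under 0.05, and these were pairs among Epcam, Cdh1, Krt7, Krt8 and Krt18. Epcam and Krt8 had the highest Pearson r, 0.879, with Spearman's rho at 0.855 (100000 permutations, p = 0.0001 and 0.00023, adjusted p = 0.0036 and 0.00666). The r was 0.839 without the 2 libraries farthest from the median, 0.791 within the 8 RT libraries and 0.979 within the 6 without RT. Krt8 and Krt18 followed with r = 0.839 and rho = 0.820 (permutation p = 0.00024 and 0.00068, adjusted p = 0.00384 and 0.00666; r = 0.855 without 2 libraries, 0.838 after RT and 0.885 without RT).
Cdh1 and Krt18 had r = 0.816 and rho = 0.807 (adjusted permutation p = 0.00384 and 0.00666; r = 0.602 without 2 libraries). Epcam and Krt18 had r = 0.784 and rho = 0.815 (adjusted permutation p = 0.00999 and 0.00666; r = 0.670 without 2 libraries). Epcam and Cdh1 had r = 0.657 and rho = 0.758 (adjusted permutation p = 0.0301 and 0.0172; r = 0.505 without 2 libraries). For Krt7 the relation with Krt8 was r = 0.747 and rho = 0.675 (adjusted permutation p = 0.0127 and 0.0486), with r = 0.554 without the 2 farthest libraries. Krt7 and Krt18 had r = 0.675 and rho = 0.503 (adjusted permutation p = 0.0350 and 0.258; r = 0.319 without 2 libraries). Cdh1 and Krt8 had r = 0.716 and rho = 0.728 (adjusted permutation p = 0.0152 and 0.0241). Its r was 0.397 without the 2 farthest libraries of the 14, but 0.956 within the 8 RT libraries and 0.874 within the 6 without RT. For Krt7 with Krt8 these were 0.897 and 0.566, and for Krt7 with Krt18 0.677 and 0.693. On deviations from the group means, r without 2 libraries was 0.848 for Cdh1 and Krt8, 0.756 for Krt7 and Krt8 and 0.599 for Krt7 and Krt18. On the same deviations Cldn10 had r = 0.770 with Krt8, 0.693 with Krt18, 0.671 with Epcam and 0.640 with Cdh1. Their adjusted permutation p was 0.00558, 0.0164, 0.0205 and 0.0362 in that order. Within the 8 RT libraries these r were 0.400, 0.413, 0.185 and 0.490, and without the 2 farthest libraries 0.691, 0.562, 0.409 and 0.622. In the same order rho was 0.697, 0.640, 0.556 and 0.618 (adjusted permutation p = 0.0234, 0.0504, 0.0995 and 0.0573). By rank only the pair with Krt8 therefore passed. Deviations were shuffled over all 14 libraries although they were centred within groups, so their permutation p may be too small. Cldn10 and Krt7 had r = 0.425 on deviations (adjusted permutation p = 0.261). Krt5 and Krt14 had r = 0.568 and rho = 0.360 (adjusted permutation p = 0.0945 and 0.398). The 10 pairs of Krt5 or Krt14 with Epcam, Cdh1, Krt7, Krt8 or Krt18 had r from -0.19 to 0.39. Some of these varied with the libraries used. Epcam and Krt14 had r = 0.717 without the 2 farthest libraries, 0.758 within the 8 RT libraries and -0.022 within the 6 without RT. Cdh1 and Krt5 had r = 0.743 within the 6 without RT and -0.375 within the 8 RT libraries. Epithelial and blood cell RNA are mixed in these libraries, and the part of a shared epithelial fraction in these correlations was not tested.

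**Figure D5:**
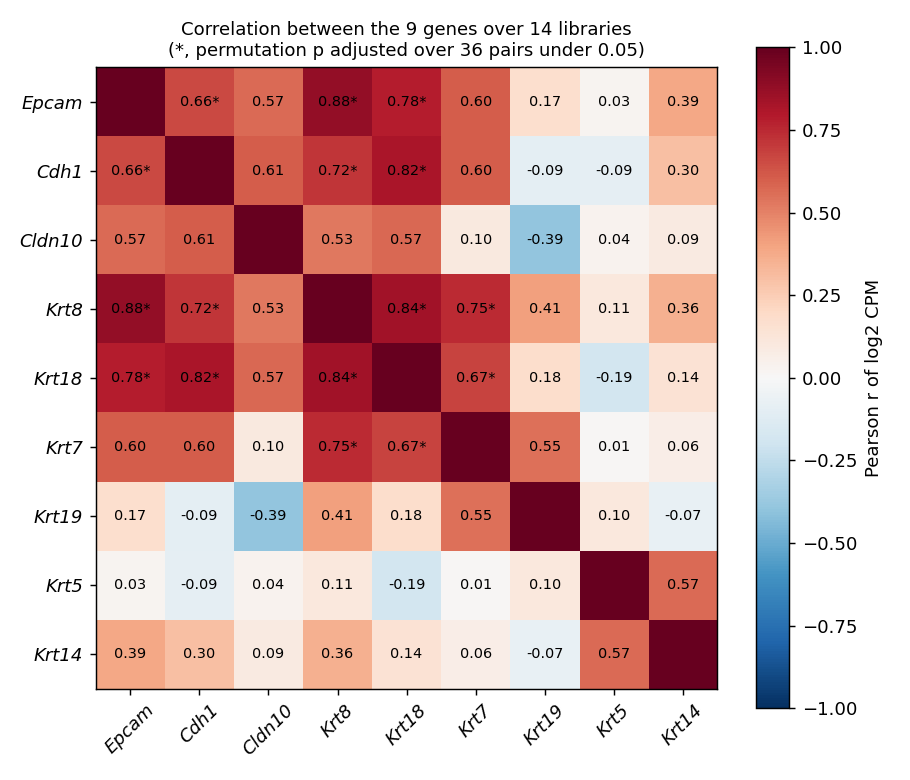
Pearson r of log2 CPM between the 9 genes over 14 libraries, with an asterisk where the permutation p adjusted over 36 pairs was under 0.05. The 8 marked pairs lie among Epcam, Cdh1, Krt8, Krt18 and Krt7, led by Epcam with Krt8 at 0.88.

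The genes most like Epcam, by Pearson r of log2 CPM over 14 libraries among 8751 genes, were the tetraspanin Cd9 (r = 0.897), the desmosomal Perp (0.889), Enpp5 (0.884), the sodium pump subunit Atp1b1 (0.878) and Prom2 (0.868). Krt8 was nearest to Perp (0.916), the mitochondrial creatine kinase Ckmt1 (0.870), the transcription factor Pitx1 (0.869), Clstn1 (0.865) and the tetraspanin Tspan12 (0.858). Krt5 was nearest to the histone demethylase Kdm4c (0.888), Zfp513 (0.873), the ribosomal protein Rps2 (0.867), the lymphocyte GTPase Gimap8 (0.836) and Zdhhc5 (0.822). With 208 counts of Krt5 in all, its list rests on few reads.

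Lists of related genes of keratin filaments and cell junctions each held 0 or 1 gene past the threshold in the mean RT contrast, where 13.4% of all genes tested passed, and 1 call in a list of 9 to 13 genes is near that share. In the mean RT contrast, 1 of 13 other tight junction genes rose, Patj, a scaffold of cell polarity, which was at 41.3 ± 8.36 CPM in RT libraries (SD, n = 8) and 24.3 ± 8.43 CPM in libraries without RT (SD, n = 6; log2 fold change 0.76, edgeR adjusted p = 0.0354). Leaving out 1 library each put Patj on the other side of the threshold in 8 of 14 cases, with an adjusted p of up to 0.0926 without Tert+ no RT replicate 2. Of 9 tested genes of hemidesmosomes and basement membrane 1 rose, the laminin chain Lamb3, at 137 ± 23.2 against 98.3 ± 9.35 CPM (0.47, adjusted p = 0.0165). Among 11 tested surface genes the galectin Lgals3 fell to 45.1 ± 14.6 CPM in RT libraries, against 71.8 ± 12.9 CPM without RT (-0.72, adjusted p = 0.00549), and it also fell in Tert- alone (-1.0, adjusted p = 0.0299, where 1.62% of all genes passed; up to 0.124, without Tert- no RT replicate 3, and past the threshold no longer in 5 of 14 fits that each leave out 1 library). In the same comparison the macrophage sum was 250.4 to 1158 CPM in Tert- RT and 1520.4 to 1860 CPM in Tert- without RT, with no overlap, and in Tert+ it was 94.2 to 191 and 117 to 280.2 CPM; its part in the Lgals3 values was not tested. Of 12 tested epithelial regulators 1 fell, the zinc finger factor Ovol1, with 0 counts in the 8 RT libraries and 70 counts in the 6 without RT, at least 22.5-fold lower from 3 counts over the group (edgeR adjusted p = 0.0440). The libraries without RT had Ovol1 counts of 22, 0 and 0 (Tert+) and of 17, 5 and 26 (Tert-). The Ovol1 call was lost in 12 of 14 fits that each leave out 1 library, with an adjusted p of 1 without Tert+ no RT replicate 1, and also with DESeq2 (adjusted p = 0.0600), with limma voom (adjusted p = 0.103) and with the replicate number as a block (edgeR adjusted p = 0.120). The calls of Lamb3 and of Lgals3 in the mean RT contrast held in all 14. The median log2 fold change in that contrast was -0.048 for the other tight junction genes, 0.23 for hemidesmosomes and basement membrane, -0.082 for the surface genes and -0.33 for the regulators, against -0.0099 over all genes.
The remaining lists had 0 genes past the threshold in all 7 comparisons: 5 tested other keratins, 6 claudins, 10 adherens junction and 9 desmosome genes. Their medians in the mean RT contrast were -0.044, -0.27, -0.064 and -0.076 in that order. In the mean RT contrast Krt23 was at 22.0 ± 9.93 CPM in RT libraries against 20.2 ± 14.9 CPM without RT, and Krt10 at 2.79 ± 0.79 against 2.61 ± 1.08 CPM. The claudins Cldn8 and Cldn3 were at 32.4 ± 20.7 and 21.1 ± 12.7 CPM after RT, and at 22.7 ± 14.5 and 30.5 ± 15.6 CPM without RT. Ctnnb1 and Ctnna1, the catenins that link E-cadherin to actin, were at 82.1 ± 14.1 and 57.2 ± 13.4 CPM after RT against 90.6 ± 19.3 and 64.3 ± 6.24 CPM without RT. The desmosomal Pkp3 and Dsg2 were at 63.5 ± 21.2 and 11.3 ± 10.8 CPM after RT, and at 87.2 ± 21.9 and 9.83 ± 7.57 CPM without RT (SD, n = 8 RT and n = 6 no RT libraries for these genes). Several of these genes, such as Lgals3 and Ctnnb1, are also expressed by blood cells; the part of these cells in the values was not tested.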

How the data were processed

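The deposited table holds raw counts per gene, 1 column per library, without normalisation, per the file headers. The submitters' processing notes name HISAT2 and mm10; the counting program, its strand setting and the annotation release are not given in the sources used here. Gene lengths and positions come from that table; Epcam's position differs from GENCODE vM21, and those of the other 8 genes match. The unit was counts as the authors deposited them; from these, counts were filtered with filterByExpr, scaled with TMM and tested with edgeR 4.0.16 in R 4.3.3 (robust quasi-likelihood fit over all 14 libraries, 1 term per group, two-sided). P-values were adjusted by Benjamini and Hochberg over 15915 genes, with a threshold of 0.05. DESeq2 1.42.0 and limma 3.58.1 served as alternatives. Fits were tested on simulated data. Log2 CPM for correlations used a prior count of 2 and 100000 permutations. The 9 genes and all gene lists were chosen with earlier results of these data known. Named genes were the 9, list members past the threshold or else the 2 highest of a list, and the 5 nearest genes by Pearson r for Epcam, Krt8 and Krt5 among genes averaging 3 or more in log2 CPM. Antisense or embedded genes overlap Krt7 (Gm671), Krt8 (Gm36026), Krt5 (Gm44323) and Cldn10 (n-R5s51), each with 0 counts. Of the listed symbols, Pals1 was not matched. Of the granular duct markers, 1 is not reported here.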

Additional observations from a re-analysis of the deposited data

Results flagged for a closer look

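The ratio of Krt7 to Krt8 counts in Tert- RT replicate 2 was 1.88, apart from the other 3 libraries of its group, which lay at 1.14 to 1.21. The gap to the next library took 0.898 of the range of the group, above Dixon's 95% critical value for 4 libraries. Among 26 groups of values examined this was the only one beyond its critical value, and chance gives about 1 in 20. That library had 131 CPM of Krt7, the highest of the 14, and 69.4 CPM of Krt8.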

How the results depend on the processing

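Of 1475 log2 fold changes of the 9 genes under alternative settings, 1376 stayed within 1 standard error of the value reported, 95 moved further, 4 passed the threshold and 0 called values changed sign; 152 values that were not called changed sign. Leaving out Tert+ no RT replicate 1 moved 32 of 63 values. Without it Epcam, for one, had -0.85 in place of 0.12 for Tert+ against Tert- without RT, and 0.86 in place of -0.12 for RT in Tert+. The 4 were Krt19 for RT (DESeq2; without Tert- no RT replicate 3, 6.12; and the number block) and Krt7 between populations (DESeq2). Krt7 stayed negative in the mean population contrast, from -1.65 to -1.02.

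Counts of genes past the threshold are given after RT and without RT between the populations, then for RT in Tert+ and in Tert-. Leaving out 1 library each gave 0 to 7, 1 to 13, 21 to 507 and 18 to 901, with 0 to 1 for the difference of responses, 1211 to 2516 for the mean RT contrast (0 to 1 of the 9 genes) and 12 to 52 for the mean population contrast. DESeq2 gave 109, 74, 1057 and 1198, with 12 for the difference of responses, 162 for the mean population contrast, and 1 of the 9 genes in each mean contrast. For the mean RT contrast, settings other than leaving out 1 library gave 1627 to 3023 genes. limma voom gave 0, 26, 482 and 405. With no filter, 4 and 16 passed between the populations. Fitting only the groups compared gave 1 after RT between the populations, 49 for RT in Tert+ and 88 in Tert-. Without both Tert+ no RT replicate 1 and Tert+ RT replicate 4, chosen after seeing the data, 1, 12 and, for RT in Tert-, 493 passed, with 2 for the difference of responses.

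Replicate numbers are shared between groups. The deviations of same-numbered libraries had correlations from -0.049 to 0.119 in 7 pairs, with 2 above 0.1. Of the 7 pairs, 4 were highest with their own number. Whether same-numbered libraries were prepared together is not stated in the labels, and these small correlations cannot decide it. A replicate block for pairs of the same RT state gave 1 gene after RT, and a replicate block for the number gave 1 of the 9 genes for RT, Krt19 at 5.20 (edgeR adjusted p = 0.0404).

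The basal share of keratins had a median of 3.81% to 4.53% under other lengths, scales and members. With deviations from group means, 14 of 36 correlations passed by Pearson r, against 8, and those that passed included Cldn10 with Epcam, Cdh1, Krt8 and Krt18. These deviations were centred within groups but shuffled over all 14 libraries, which can make the permutation p too small. The counts of 14 and 8 are therefore not strictly comparable. Krt19, Krt5 and Krt14 are limited by depth, with 141, 208 and 799 counts in all; Krt19 did not pass the filter of 10 counts in 7 libraries.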

Other observations

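Type I keratins exceeded type II keratins in every library. The sum of Krt18, Krt19 and Krt14 per kilobase divided by the sum of Krt8, Krt7 and Krt5 was 1.32 to 4.09 over 14 libraries, with a median of 2.34, although the chains pair one to one in the filament. With the deposited length of Krt7 longer than its transcripts, its part of the type II sum is understated on this scale.

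The genes with levels most like Krt7 and Cldn10, chosen after their values were seen, differed. Krt7 was nearest to Slc16a11 (Pearson r = 0.892 over 14 libraries), Fxyd2, a modulator of the sodium pump (0.881), the transcription factor Tfcp2l1 (0.875), the proton pump subunit Atp6v0d2 (0.842) and App (0.841). Cldn10 was nearest to Bcat2 (0.895), the acinar product Prol1 (0.867), St3gal4 (0.851), the potassium channel Kcnn4 (0.848) and P4hb (0.841). Without Tert+ no RT replicate 1 the Krt7 values were 0.892, 0.883, 0.883, 0.843 and 0.852 in that order, and those of Cldn10 were 0.695, 0.650, 0.690, 0.674 and 0.472. Krt7 and Cldn10 themselves had r = 0.10.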
